A study of Mus musculus with 2 samples.

Results

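The genes described here are 9 members of the Hedgehog signalling pathway, taken by name from the 19550 genes counted in single cells of the developing mouse foregut. They comprise the ligands Shh and Ihh, the receptor Ptch1, the signal transducer Smo, the transcription factors Gli1, Gli2 and Gli3, the inhibitor Hhip and the co-receptor Cdon. The list was set by gene name, with earlier results of these data known, and each of the 9 had at least 50 molecules in the table.

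Hedgehog ligands are secreted proteins that bind Ptch1 on the receiving cell. Unbound Ptch1 holds Smo inactive, and ligand binding releases Smo, which lets the Gli proteins act on transcription. Ptch1, Gli1 and Hhip are themselves transcribed when the pathway is active, so their transcripts serve as a common readout of the response, and both Ptch1 and Hhip restrain the signal by binding ligand. In the developing gut the ligands are made by the epithelium and the response is classically placed in the mesenchyme beneath it.

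Esophagus, stomach and the gastroesophageal squamo-columnar junction (GE-SCJ) were taken from wild-type C57BL/6 mice at embryonic day 15 (E15), at E19, at 2 days after birth (pup) and at 8 weeks (adult). According to the labels, 6, 2, 2 and 3 mice were used at these stages, and the cells of each region and stage carried their own oligonucleotide tag before all were sequenced in 1 library. The methods give another number of mice, and cells could not be traced to a mouse. No animal was treated or carried an altered allele. The mice of a group were pooled, so each region and stage was 1 sample, no replicate spread could be had, and no test was made.

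The table held 7808 cells in 11 groups, since no cell carried the adult stomach tag. Groups held 143 to 1403 cells and 2302227 to 20070615 molecules, counted as unique molecular identifiers (UMIs). A level in CPM is the share of a gene among all UMIs of a group of cells, taken after adding up the cells, times 1000000. The authors' cell labels mostly fitted their markers: Krt13 reached 13482 CPM in squamous cells, Tff1 6972 CPM in columnar cells and Dcn 3447 CPM in Stromal cells. Acta2 reached 12616 CPM in Smooth Muscle cells. The fibroblast marker Postn was higher in neural (223.2 CPM) than in Stromal cells (177.8 CPM). In pup stomach, Smooth Muscle cells also carried fibroblast markers, which summed to 8543 CPM. The 139 cells labelled Stromal-2 carried the mesothelial markers Upk3b at 863.9 CPM and Wt1 at 388.0 CPM, genes of the sheet that covers the outer gut wall. Of the adult-tagged cells, 19 of 335 esophageal and 24 of 143 GE-SCJ cells had mostly prenatal cells among their 15 nearest neighbours, and adult levels are given with that in mind.

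Molecules were counted at the 3′ end of transcripts, so levels were not scaled by transcript length, and orders between genes are not drawn from them. Brackets give 95% intervals (exact Poisson for a level, exact binomial for a share of cells, exact conditional binomial for a log2 ratio), which cover counting error only and not differences between mice. Free RNA in the droplets gives every cell a few foreign molecules. Immune cells, which should lack the ligands, held 0 to 7.0 CPM of Shh and 0 to 16.9 CPM of Ihh across groups.

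Both ligands were epithelial, and their shares differed between squamous and columnar cells. Of all 1725 Shh UMIs, 75.1% lay in columnar and 19.1% in squamous cells, while 91.3% of the 3835 Ihh UMIs lay in columnar and 1.43% in squamous cells. Columnar cells held 43221361 UMIs of all genes and squamous cells 10705576, so these shares follow cell number and depth as well as level. Up to the pup stage esophageal squamous cells carried Shh with little Ihh, stomach columnar cells carried more Ihh than Shh, and the junction held both kinds of epithelium. At E15, Shh made up 96.2% [90.6 to 99.0] of the ligand UMIs in esophageal squamous cells, 94.7% in GE-SCJ squamous cells, 50.8% [44.5 to 57.1] in GE-SCJ columnar cells and 21.1% [17.7 to 24.8] in stomach columnar cells. In the 232 adult esophageal squamous cells both ligands were scarce, with 7 Shh and 18 Ihh UMIs (28.0% Shh [12.1 to 49.4]).

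Shh, the main ligand of esophageal squamous cells up to the pup stage, had an E15 level of 103.8 CPM [84.7 to 126.0] there (102 UMIs in 64 cells). E19, pup and adult levels there were 27.5, 33.9 and 2.18 CPM, the last with an interval of 0.877 to 4.49. The E15 level was 3.78-fold above E19 (log2 ratio 1.92 [1.40 to 2.45]), whereas E19 and the joined pup cells could not be told apart (−0.30 [−0.98 to 0.38]). The pup value joined both squamous labels, which differed. Cells labelled Squamous Epithelial held 56.1 CPM [38.3 to 79.1] (32 UMIs, 56 cells), and those labelled Squamous Epithelial-2 held 2.49 CPM (1 UMI, 29 cells). The adult level lay within the immune range, and was 1.26 CPM (4 UMIs) without the cells with prenatal neighbours. GE-SCJ squamous cells followed the same early course with levels of 118.3 [97.0 to 143.0], 18.6, 8.96 and 4.51 CPM from E15 to adult, the last 2.03 CPM without such cells. Esophageal and GE-SCJ squamous cells did not differ in Shh at E15 (log2 ratio −0.19 [−0.59 to 0.22]), but in pups the esophageal level was higher (1.92 [0.65 to 3.47], on 33 and 6 UMIs).

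In columnar cells Shh depended on position. From E15 over E19 to pup, GE-SCJ columnar cells held 97.4 [81.4 to 115.8], 53.0 [47.8 to 58.7] and 16.1 CPM [13.5 to 19.1]. Stomach columnar cells held 28.7 [23.6 to 34.6], 36.9 [33.1 to 40.9] and 10.9 CPM [9.03 to 12.9] at the same stages. The columnar cells nearest the junction therefore carried 3.39-fold more Shh than those of the stomach at E15 (log2 ratio 1.76 [1.38 to 2.14]), and the gap narrowed to 0.52 [0.31 to 0.74] at E19 and 0.57 [0.20 to 0.93] in pups. At E15 the Shh level of GE-SCJ columnar cells could not be told from that of the squamous cells of the same region (squamous over columnar 0.28 [−0.10 to 0.66]). The 19 adult GE-SCJ columnar cells held 32.3 CPM on 16 UMIs, or 16.5 CPM without the 8 of them that had mostly prenatal neighbours.

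Ihh, which lay mostly in columnar cells, went in those of the stomach from 107.7 CPM [97.6 to 118.6] in the E15 group to 110.0 [103.4 to 116.8] in the E19 group and 35.4 [32.0 to 39.0] in pups. Its level did not change detectably between E15 and E19 (log2 ratio −0.03 [−0.20 to 0.14]) and was 3.05-fold higher at E15 than in pups (1.61 [1.41 to 1.81]). GE-SCJ columnar cells held 94.4, 137.1, 46.3 and 108.9 CPM from E15 to adult, the last on 54 UMIs and 74.1 CPM without the cells with prenatal neighbours. Unlike Shh, Ihh at E15 did not differ between GE-SCJ and stomach columnar cells (−0.19 [−0.49 to 0.10]). In squamous cells of every region and stage Ihh lay between 0 and 6.64 CPM, within the immune range. Of 5 listed genes with enough UMIs in stomach columnar cells, 4 (Shh, Ihh, Ptch1 and Smo) were at least 2-fold higher at E15 than in pups and 0 lower, where 20.7% of all genes were higher and 9.69% lower. The Ptch1 level in these cells lay near that of immune cells at E15 (46.9 and 39.1 CPM). Squamous cells of the GE-SCJ carried 14.2-fold less Ihh than columnar cells of the same region at E15 (log2 ratio −3.83 [−5.30 to −2.67]).

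Counts of positive cells gave the same order among cells with at least 5000 UMIs, each thinned to 5000 UMIs. Shh was then seen in 36.2% of esophageal and 46.7% of GE-SCJ squamous cells at E15, and in 26.9% of GE-SCJ against 15.1% of stomach columnar cells. Ihh was seen in 40.3% of stomach columnar cells at E15, 38.6% at E19 and 17.0% in pups, against 0% of esophageal squamous cells at E15. Without thinning, 87.1% of E15 stomach columnar cells had an Ihh UMI. Shh and Ihh were not kept to separate columnar cells: at E19, Ihh was seen in 41.8% of Shh-positive and 37.9% of Shh-negative stomach cells, and in 44.8% and 38.9% of those of the GE-SCJ.

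**Figure D1:**
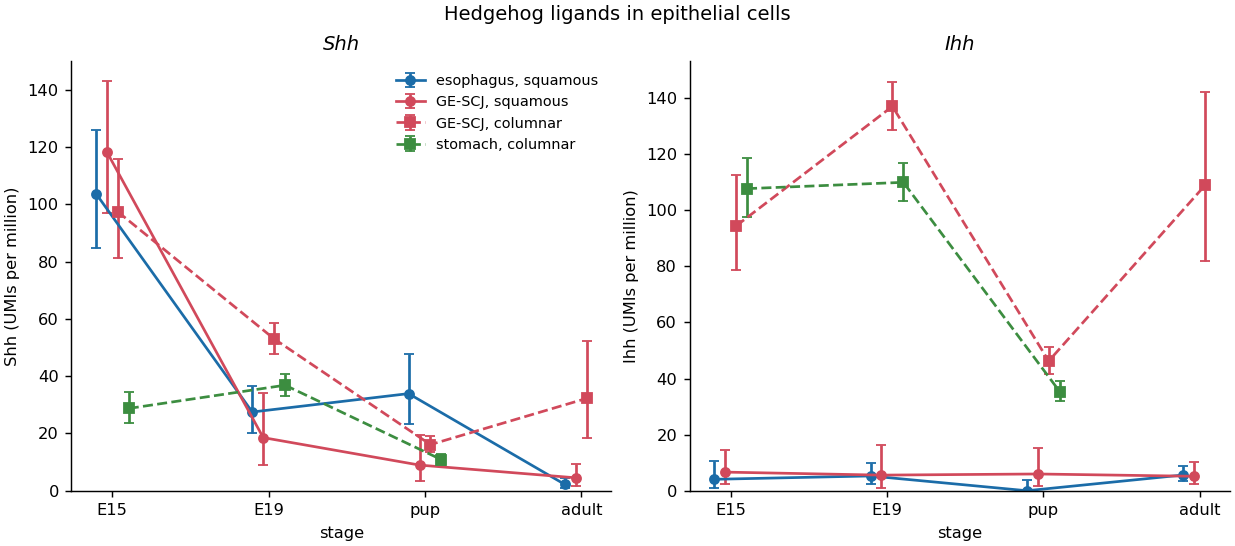
Levels of Shh and Ihh (CPM) by stage in the squamous and columnar cells of each region, with lines joining the stages of a region and bars giving 95% counting intervals. Shh was highest at E15 in the squamous cells of esophagus and GE-SCJ and in GE-SCJ columnar cells (97.4 to 118.3 CPM), while Ihh stayed at 0 to 6.64 CPM in squamous cells and reached 137.1 CPM in GE-SCJ columnar cells at E19.

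In pups, Shh within the stomach epithelium sat with the pit cell genes, and both ligands were missing from the cells richest in a list of parietal cell genes. Pit cells line the gastric surface and make Gkn1, Gkn2, Tff1 and Muc5ac, and parietal cells pump acid with Atp4a and Atp4b. The 10% of pup stomach columnar cells richest in the pit genes (35 cells) held 52.5 CPM of Shh against 6.82 CPM in the other 316 (log2 ratio 2.94 [2.40 to 3.48]). Ihh differed less between the same cells, at 63.4 against 32.7 CPM (0.96). The parietal list was Atp4a, Atp4b, Kcne2 and Cblif, of which Cblif is not particular to parietal cells in mice. The 35 cells richest in this list held no UMI of either ligand, against 11.8 CPM of Shh and 38.6 CPM of Ihh in the others. However, 31 cells lay near the limit of that 10%. Such cells are called parietal-rich below, a name for the list and not for a cell type.

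The same order was smaller at E19 and was not seen at E15. In E19 stomach, pit-rich cells held 80.6 against 32.4 CPM of Shh (log2 ratio 1.31), and parietal-rich cells held 37.0 against 114.4 CPM of Ihh (−1.63). The parietal-rich cells at E19 also had fewer UMIs, with a median of 6618 against 24931 per cell, and the part of this in the result was not tested. Cells rich in the gland base genes Muc6, Pgc, Tff2 and Bhlha15 held 14.9 against 39.5 CPM of Shh (−1.41). In E15 stomach the pit-rich and other cells held 25.6 and 29.1 CPM of Shh and 109.4 and 107.5 CPM of Ihh.

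The columnar cells of the GE-SCJ showed the pit and parietal order as well. At E19, pit-rich cells held 95.1 against 48.4 CPM of Shh, and parietal-rich cells held 15.9 against 56.6 CPM of Shh and 34.9 against 146.9 CPM of Ihh. In pups, pit-rich cells held 32.1 against 14.4 CPM of Shh (log2 ratio 1.15), while their Ihh did not differ (44.9 against 46.4 CPM). Cells rich in the cycling genes Mki67, Top2a, Cdk1 and Ccnb1 held 32.0 against 55.7 CPM of Shh at E19 (−0.80). Esophageal squamous cells at E19 were ranked by the suprabasal genes Krt4, Krt13, Krt1 and Lor, made by cells that have left the basal layer. The 12 richest held no Shh UMI against 31.5 CPM in the others. The 12 richest in the basal genes Krt5, Krt14, Krt15 and Trp63 were not higher than the others either. They held 5.44 against 30.2 CPM of Shh (1 UMI, log2 ratio −2.47 [−7.80 to 0.08]).

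**Figure D2:**
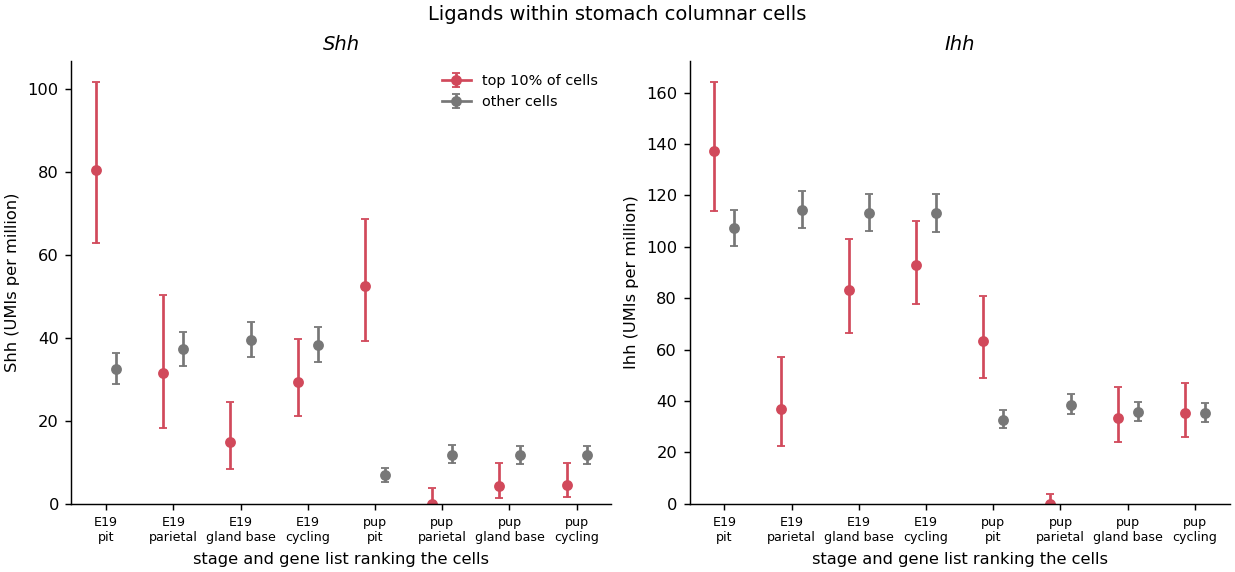
Levels of Shh and Ihh (CPM) in stomach columnar cells of E19 and pup, for the 10% of cells richest in pit, parietal, gland base or cycling genes (red) and for the other cells (grey), with 95% counting intervals. Pit-rich cells stood highest for Shh at both stages (80.6 and 52.5 CPM), and parietal-rich cells stood lowest for Ihh (37.0 and 0 CPM).

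Ptch1, the receptor and a target of the pathway, was mesenchymal: 73.9% of its 19933 UMIs lay in Stromal cells. Ptch1 lies at chr13:63508328-63573598 on the minus strand, Hhip at chr8:79965851-80058006 (minus) and Gli1 at chr10:127329882-127341974 (minus) of GRCm38. Gli2 lies at chr1:118834132-119053619 (minus), Gli3 at chr13:15463235-15730026 (plus) and Smo at chr6:29735503-29761365 (plus). The ligand genes lie at chr5:28456815-28467256 (Shh) and chr1:74945315-74951672 (Ihh), both on the minus strand, and Cdon at chr9:35421128-35507652 (plus).

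The response genes are read by Gli proteins through a short DNA motif, and the promoters of 2 such genes, Ptch1 and Hhip, are shown beside that of Gli2. The sequences are the 250 bases before the RefSeq start of each gene (GRCm38.p6), at chr13:63565736-63565985 for Ptch1, chr8:80058009-80058258 for Hhip and chr1:119053620-119053869 for Gli2, all written 5′ to 3′ on the minus strand. The Ptch1 window lies inside the longer GENCODE span given above, which has a start further upstream. Capitals mark the core Gli motif ACCACCC, on either strand.
Ptch1: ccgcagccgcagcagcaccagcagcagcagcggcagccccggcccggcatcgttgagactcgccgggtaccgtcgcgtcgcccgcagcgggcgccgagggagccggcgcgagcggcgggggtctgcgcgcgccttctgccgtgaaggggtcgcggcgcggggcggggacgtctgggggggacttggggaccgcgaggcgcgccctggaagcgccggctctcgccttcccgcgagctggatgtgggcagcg
Hhip: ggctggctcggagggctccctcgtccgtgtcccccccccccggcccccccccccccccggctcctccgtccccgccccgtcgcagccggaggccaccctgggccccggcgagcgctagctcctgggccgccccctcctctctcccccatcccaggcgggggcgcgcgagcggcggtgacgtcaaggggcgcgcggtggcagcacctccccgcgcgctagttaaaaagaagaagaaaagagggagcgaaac
Gli2: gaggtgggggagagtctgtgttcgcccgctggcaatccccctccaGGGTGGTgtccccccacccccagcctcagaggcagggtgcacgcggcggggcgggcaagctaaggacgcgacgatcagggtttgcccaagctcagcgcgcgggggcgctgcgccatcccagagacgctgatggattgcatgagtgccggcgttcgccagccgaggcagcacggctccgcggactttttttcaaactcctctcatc
All 3 are rich in G and C (78.4%, 76.0% and 67.2%, against a median of 52.4% over 32851 mouse promoters) and in CpG dinucleotides (41, 28 and 22 against a median of 6). The full motif GACCACCCA, searched on both strands of the 300 bases around the start, was in 0 of the 7 member windows that matched by symbol and in 0.253% of all windows. The core motif, which the full motif contains, was in the Gli2 window alone among the 7 and in 4.61% of all windows.

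In epithelium, Ptch1 was mostly low. Columnar cells held 22.9 to 59.5 CPM, within the range of immune cells. That range may hold more than free RNA, since the fibroblast markers named below summed to 251.7 CPM in E15 stomach and 4315 CPM in E19 esophageal immune cells. Esophageal squamous cells at E15 were the exception, at 213.7 CPM [185.8 to 244.7] (210 UMIs, present in 46 of 64 cells) against 65.2 CPM in E15 esophageal immune cells (log2 ratio 1.71 [1.03 to 2.47]). The later esophageal squamous levels were 73.1, 51.4 and 15.9 CPM in E19, pup and adult, so the E15 level was 13.4-fold above the adult one. In these cells 5 of 5 listed genes with enough UMIs (Shh, Ptch1, Smo, Gli3 and Cdon) were at least 2-fold higher at E15 than in adults, as were 21.4% of all genes, with 11.0% lower. Against E15 stomach columnar cells, Shh, Ptch1, Smo and Gli3 were at least 2-fold higher in the esophageal squamous cells and Ihh lower, of 6 measured, beside 8.47% and 9.45% of all genes. GE-SCJ squamous cells held only 47.6, 33.4, 31.4 and 20.6 CPM from E15 to adult, 4.49-fold below the esophagus at E15 (esophagus over GE-SCJ 2.17 [1.69 to 2.68]), while the Shh levels of both could not be told apart.

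Fibroblast RNA moved with this result. The fibroblast markers Col1a1, Col3a1, Dcn, Lum and Postn summed to 1502 CPM in the esophageal squamous cells at E15 and to 286.4 CPM in those of the GE-SCJ. The 41 esophageal cells with fewer than 10 UMIs of these markers, whose summed marker level was 300.3 CPM, held 147.5 CPM [117.3 to 183.0] of Ptch1, and the 23 others held 300.2 CPM. In those 41 cells Gli1 and Hhip had 1 UMI each (1.80 CPM), and Shh stood at 89.9 CPM. Ptch1 thus stayed above the immune level without the marker-rich cells, at a lower value, and Gli1 and Hhip were near 0.

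In prenatal Stromal cells, Ptch1 was higher at E15 in the esophagus and higher at E19 in the stomach and GE-SCJ. Esophageal Stromal cells held 378.8, 279.0, 90.8 and 49.5 CPM from E15 to adult, the last on 8 UMIs. Stomach Stromal cells held 455.2, 685.7 and 176.9 CPM from E15 to pup. Of the 78 pup cells, 60 lay in the authors' cluster 9 and 9 each in clusters 0 and 3, which held mostly prenatal cells. GE-SCJ Stromal cells held 463.7, 533.6, 165.1 and 452.2 CPM, the last from 15 cells and 336.9 CPM without the 8 of them with prenatal neighbours. From E15 to E19 the level went down in the esophagus (E15 over E19 0.44 [0.34 to 0.54]) and up in the stomach (−0.59 [−0.67 to −0.51]). Esophagus and stomach were therefore near each other at E15 (esophagus over stomach −0.27 [−0.37 to −0.16]) and 2.46-fold apart at E19 (−1.30 [−1.37 to −1.22]).

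Gli1, a transcription factor that is made in response to the signal, ran with Ptch1 in some of these groups and not in others. It stood at 60.1, 31.5, 31.9 and 6.19 CPM in esophageal Stromal cells from E15 to adult, at 57.6, 77.7 and 11.2 CPM in those of the stomach, and at 70.6, 65.0, 33.0 and 17.1 CPM in those of the GE-SCJ. In the GE-SCJ, Gli1 did not differ detectably between E15 and E19 (log2 ratio 0.12), and in the esophagus it did not differ between E19 and pup (−0.02), where Ptch1 was lower in pups. The esophageal and stomach levels did not differ at E15 (log2 ratio 0.06 [−0.21 to 0.33]) and differed at E19 by −1.30 [−1.54 to −1.07], the same ratio as Ptch1. Across the 54 groups of region, stage and label with at least 20 cells, Gli1 was the gene most like Ptch1 of 11672 genes (Pearson r of log2(CPM + 10) 0.895), and Ptch1 the one most like Gli1. In single cells, after thinning, Ptch1 was seen in 88.5% of 78 Gli1-positive and 72.5% of 247 Gli1-negative stomach Stromal cells at E15.

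Hhip, which binds and sequesters the ligands, parted from Ptch1 and Gli1 at E15. Esophageal Stromal cells held 102.1 CPM at E15 and 76.7 CPM at E19, and stomach Stromal cells held 43.0 CPM and 103.3 CPM. The esophagus was thus 2.38-fold above the stomach at E15 (log2 ratio 1.25 [0.98 to 1.52]) and below it at E19 (−0.43). GE-SCJ Stromal cells held 40.3 CPM at E15 and 63.3 CPM at E19. Pup Stromal levels were 31.9 CPM in the esophagus, 5.08 CPM in the GE-SCJ (2 UMIs) and 33.6 CPM in the stomach.

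Over the listed genes, 7 of the 9 genes had at least 50 UMIs in stomach Stromal cells of E15 and pup together. Of these, Ptch1, Smo, Gli1 and Cdon were at least 2-fold higher at E15 and none was at least 2-fold lower, where 15.3% of 8948 genes were higher and 7.72% lower. With cell classes taken from marker lists, Ptch1 and Gli1 were less than 2-fold higher (log2 ratios 0.51 and 0.52) and Hhip was more than 2-fold lower at E15 (−2.74), as it was with the Stromal and Smooth Muscle labels joined (−1.11). Between E15 and E19 in the same cells 0 of 7 were higher at E15 and 1, Hhip, was lower, against 1.45% and 2.51% of all genes. In esophageal Stromal cells 1 of 8, Cdon, was higher at E15 than at E19 and 0 were lower, against 2.02% and 2.21%. Between esophageal and stomach Stromal cells at E15, 1 of 7, Hhip, was higher in the esophagus and 0 were lower, against 2.94% and 3.46%. At E19, 0 of 8 were higher in the esophagus and 3, Ptch1, Gli1 and Cdon, were lower, against 3.42% and 5.22% of all genes.

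**Figure D3:**
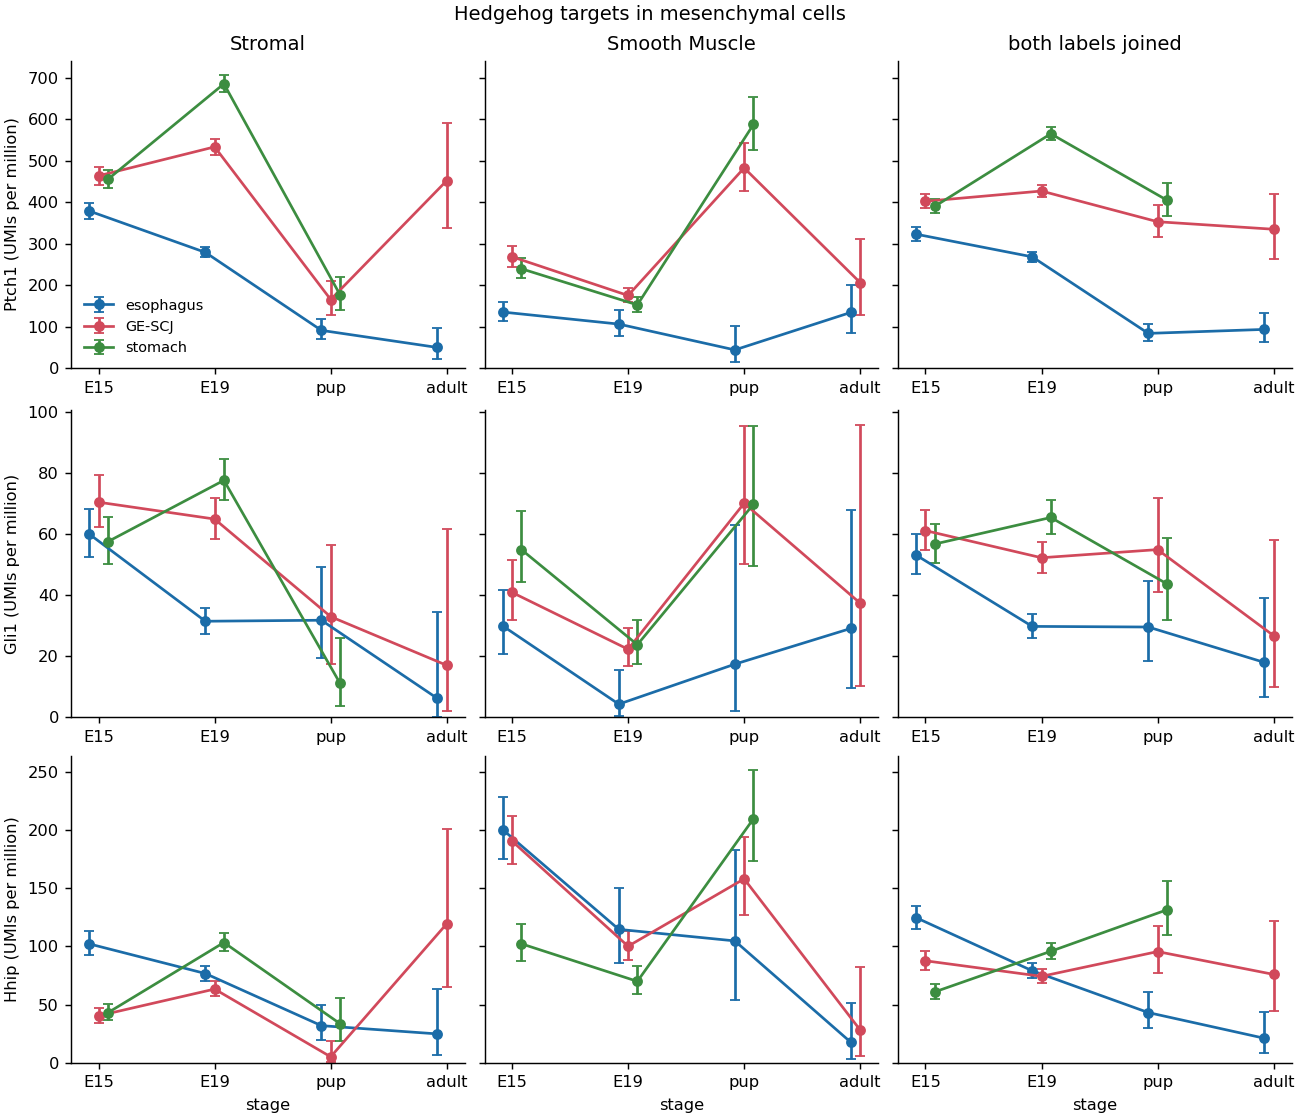
Levels of Ptch1, Gli1 and Hhip (CPM, rows) by stage in Stromal cells, in Smooth Muscle cells and in both labels joined (columns), with lines for the regions and bars for 95% counting intervals. In stomach, Ptch1 went from 685.7 CPM at E19 to 176.9 CPM in pups in Stromal cells and from 152.3 to 587.6 CPM in Smooth Muscle cells, while the joined level was 565.2 and 405.1 CPM.

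From E19 to pup, the Smooth Muscle label ran opposite to the Stromal one in stomach and GE-SCJ. Most of its pup cells there lay in a cluster with few prenatal cells, as given below. The part of this change of cells in the levels was not tested. Smooth Muscle Ptch1 stood at 239.5, 152.3 and 587.6 CPM in stomach from E15 to pup. In the GE-SCJ it stood at 268.4, 175.0, 482.8 and 206.0 CPM from E15 to adult. In the esophagus it stayed lower, at 135.0, 106.0, 43.6 and 134.2 CPM. Before birth, Ptch1 was lower in Smooth Muscle than in Stromal cells of each region, with log2 ratios of −1.49, −0.79 and −0.93 at E15 in esophagus, GE-SCJ and stomach. In pups the order was turned in the GE-SCJ (1.55) and in the stomach (1.73 [1.37 to 2.10]) but not in the esophagus (−1.06 [−2.73 to 0.25]). Of 4 listed genes with enough UMIs in pup stomach, Ptch1 and Hhip were at least 2-fold higher in Smooth Muscle cells and 0 were lower, against 6.78% and 6.44% of all genes.

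Gli1 and Hhip in Smooth Muscle cells of stomach and GE-SCJ were also higher in pups than at E19. Gli1 stood at 55.0, 23.8 and 69.9 CPM in stomach from E15 to pup, and at 41.0, 22.3 and 70.2 CPM in the GE-SCJ. Esophageal Smooth Muscle cells held 29.99, 4.32, 17.4 and 29.2 CPM of Gli1 from E15 to adult. The adult level rested on 5 UMIs [9.47 to 68.1], and the E19 and pup groups held only 42 and 22 cells. At E15 the stomach level of Gli1 was the same as in Stromal cells (log2 ratio −0.07 [−0.43 to 0.29]), although Ptch1 there was lower. Hhip stood at 102.2, 69.9 and 209.6 CPM in stomach Smooth Muscle and was already above the Stromal level at E15 in all regions (log2 ratios 0.97 in esophagus, 2.24 in GE-SCJ and 1.25 in stomach). Hhip was 190.5, 100.1, 158.0 and 28.1 CPM in GE-SCJ Smooth Muscle and 200.3, 114.6, 104.7 and 17.5 CPM in that of the esophagus from E15 to adult. Both adult levels rested on 3 UMIs.

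The make-up of the labels differed before and after birth. Smooth Muscle cells made up 23.6% of the joined Stromal and Smooth Muscle cells of the stomach at E15 and 18.6% at E19, but 59.2% in pups, and 27.2%, 24.4% and 59.2% in the GE-SCJ. Of the pup Smooth Muscle cells, 101 of 113 in stomach and 95 of 119 in the GE-SCJ lay in the authors' cluster 11, which held fibroblast as well as muscle genes. In stomach this cluster had 7059 CPM of the contractile gene Acta2 together with 1149 CPM of Dcn, 172.9 CPM of Pdgfra and 299.4 CPM of Bmp4. The Smooth Muscle cluster of the embryo, cluster 4, had 17190 CPM of Acta2, 163.5 CPM of Dcn, 12.8 CPM of Pdgfra and 28.3 CPM of Bmp4 in E19 stomach.

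With both labels joined, Ptch1 differed less between E19 and pup in stomach and GE-SCJ than in the esophagus. Joined Ptch1 stood at 390.0, 565.2 and 405.1 CPM in stomach from E15 to pup, and at 402.2, 427.0, 353.0 and 334.8 CPM in the GE-SCJ. In the esophagus it stood at 322.9, 268.2, 83.5 and 93.1 CPM. The log2 ratio of E19 over pup was 0.48 in stomach and 0.27 in GE-SCJ against 1.68 in the esophagus. Joined Gli1 was 56.8, 65.6 and 43.8 CPM in stomach and 53.2, 29.8, 29.6 and 18.0 CPM in the esophagus. Joined Hhip was higher at each later stage in stomach, at 60.9, 95.8 and 131.4 CPM, and was 87.6, 74.2 and 95.5 CPM in the GE-SCJ from E15 to pup and 124.6, 79.0 and 43.1 CPM in the esophagus. From E15 to pup, stomach Ptch1 was thus lower in pups within the Stromal label but not in the joined cells (E15 over pup −0.055), while esophageal Ptch1 was lower in pups either way.

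Within the labels, the response genes lay in some of the authors' clusters and not in others. These clusters were made from the same transcripts, so the values are a description. Prenatal Stromal cells of stomach and GE-SCJ were split into cluster 0 and cluster 3, and those of the esophagus into clusters 1 and 3. At E19 in stomach, Ptch1 was 825.3 CPM in cluster 0 and 126.3 CPM in cluster 3, Gli1 91.2 and 22.5 CPM, and Hhip 127.4 and 5.42 CPM. Foxf2, a forkhead factor of gut mesenchyme, was 149.9 and 0.775 CPM and Bmp4, a secreted growth factor induced by Hedgehog in the gut, 470.7 and 55.8 CPM. In pup stomach, cluster 11 of the Smooth Muscle label held 672.6 CPM of Ptch1, 78.0 CPM of Gli1 and 240.4 CPM of Hhip, where the Stromal cluster 9 held 126.6, 12.4 and 15.4 CPM.

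**Figure D4:**
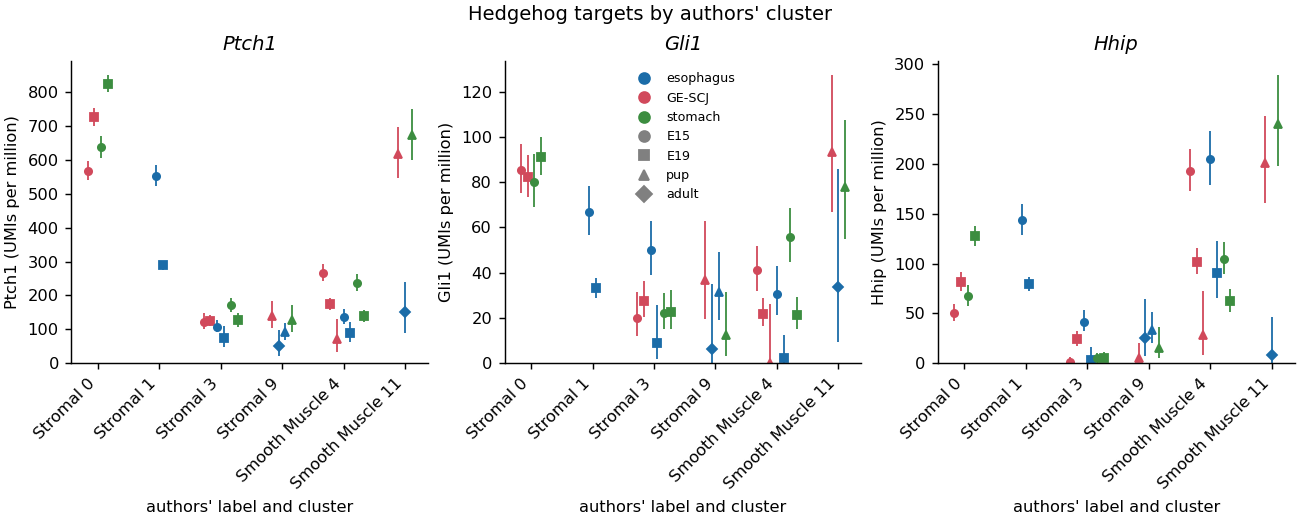
Levels of Ptch1, Gli1 and Hhip (CPM) in each of the authors' clusters within the Stromal and Smooth Muscle labels, with colour for the region, marker shape for the stage and bars for 95% counting intervals. Ptch1 stood at 288.4 to 825.3 CPM in prenatal clusters 0 and 1, at 618.6 and 672.6 CPM in pup cluster 11, and at 73.9 to 170.6 CPM in prenatal cluster 3.

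The fibroblasts thought to lie next to the epithelium were set apart with 5 genes, Pdgfra, Foxl1, Bmp5, F3 and Wnt5a. Foxl1 also belongs to the Hedgehog response genes of gut mesenchyme used below, so this ranking is not independent of the response. In E19 stomach, the 10% of Stromal cells richest in these genes held 352.6 CPM of Hhip against 76.0 CPM in the others (log2 ratio 2.21 [1.98 to 2.45]), and 1145 against 635.5 CPM of Ptch1 (0.85). Gli1 did not differ between them (81.2 against 77.4 CPM, 0.07). In E19 GE-SCJ the same cells held 298.3 against 39.1 CPM of Hhip and 1066 against 478.9 CPM of Ptch1, with Gli1 at 60.0 against 65.6 CPM. Stomach showed this at E15 as well, with Hhip at 140.2 against 33.8 CPM (2.05 [1.53 to 2.55]) and Ptch1 at 0.52. The 8 list-rich cells of pup stomach held 180.5 against 17.4 CPM of Hhip (8 and 7 UMIs). They held 586.7 against 131.8 CPM of Ptch1. In E15 GE-SCJ Hhip did not differ detectably between the cells (23.6 against 42.0 CPM, −0.83 [−2.07 to 0.19]). The 8 list-rich cells of pup GE-SCJ held no Hhip UMI and 88.0 against 172.4 CPM of Ptch1 (3 UMIs). Esophageal cells did not share this order for Hhip, which was 51.2 CPM in the list-rich cells and 79.2 CPM in the others at E19 (−0.63). The list itself differed between the regions. In E19 Stromal cells Bmp5 stood at 1.29 CPM in esophagus and 39.6 CPM in stomach, and F3 at 4.44 and 22.2 CPM. Foxl1 and Wnt5a were also lower in the esophagus, and Pdgfra was higher. The part of this in the regional difference was not tested.

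In Stromal cells, Smo and Gli2 varied less between regions and stages than Ptch1. Smo, the membrane protein that passes the signal on, stood between 42.6 and 87.5 CPM in Stromal cells of all regions and stages, and between 22.5 and 87.5 CPM in squamous cells, so it was not confined to the mesenchyme. Gli2, the main activator among the Gli proteins, stood between 14.3 and 59.7 CPM in Stromal cells, 17.9 and 35.3 CPM in Smooth Muscle cells and 0 and 4.08 CPM in epithelium. Gli3, which acts chiefly as a repressor in the absence of ligand, was 94.5, 91.3, 89.2 and 68.1 CPM in esophageal Stromal cells from E15 to adult.

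Gli3 also differed between regions. Stomach Stromal cells held 148.5, 108.4 and 87.3 CPM from E15 to pup, and stomach Smooth Muscle cells 237.1, 172.5 and 87.8 CPM. Esophageal Smooth Muscle cells held 77.6, 62.7, 69.8 and 5.83 CPM from E15 to adult, the last on 1 UMI. At E15 the esophagus was below the stomach by a log2 ratio of −1.61 [−1.96 to −1.27] in Smooth Muscle and −0.65 in Stromal cells. GE-SCJ Smooth Muscle lay between them at 138.5 CPM. Across the 54 groups, Gli2 and Gli3 ran with each other (r = 0.857) more than Gli2 with Ptch1 (0.744). These groups share 1 library and mostly the same cell labels, so the values describe where the genes were seen.

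Cdon, a membrane protein that helps present ligand to Ptch1, was high in the prenatal Stromal clusters where Ptch1 was low, although over the 54 groups of region, stage and label the levels of both ran weakly together (r = 0.400). Within E19 stomach Stromal cells, cluster 0 held 4.73 CPM of Cdon and cluster 3 129.4 CPM, and at E15 the values were 3.01 and 126.3 CPM. GE-SCJ clusters 0 and 3 held 6.67 and 99.3 CPM at E19, and esophageal clusters 1 and 3 held 4.82 and 66.3 CPM at E15. The 2 other co-receptors Boc and Gas1 ran the same way, with 15.1 against 82.9 CPM of Boc and 56.2 against 492.7 CPM of Gas1 in E19 stomach clusters 0 and 3.

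Single cells with at least 5000 UMIs showed this order without the clusters, after thinning to 5000 UMIs. In pups that limit kept 34 of 151 esophageal, 32 of 82 GE-SCJ and 44 of 78 stomach Stromal cells. In E19 stomach, Cdon was seen in 6.40% [4.39 to 8.97] of 484 Ptch1-positive Stromal cells and in 24.6% [17.6 to 32.8] of the 134 Ptch1-negative ones, Boc in 10.1% and 26.1%, and Gas1 in 22.3% and 64.9%. GE-SCJ Stromal cells at E19 gave 8.88% and 25.0% for Cdon and 29.0% and 76.9% for Gas1. In E15 esophagus the shares were 6.28% and 14.8% for Cdon and 45.4% and 75.7% for Gas1. Boc did not differ in E19 esophagus (17.2% and 17.4%), and in the pup groups, with 11 to 15 Ptch1-positive cells, all intervals overlapped. There the Cdon shares of Ptch1-positive and negative cells were 7.14% and 11.1% for GE-SCJ but 27.3% and 8.70% for esophagus, with stomach like the latter. These pairs of genes were chosen after the cluster values had been seen, and the differences were not tested.

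Cdon also differed between the labels and stages. In esophageal Stromal cells it was 28.9, 7.74, 41.4 and 148.5 CPM from E15 to adult. Cluster 3, the Cdon-rich one at E15, held 136 of these 347 cells at E15 and 50 of 739 at E19. Cluster 9 held 149 of 151 in pups and 30 of 31 in adults. The part of these cluster shares in the Cdon levels was not tested. Smooth Muscle cells held 68.8, 71.0 and 69.6 CPM at E15 in esophagus, GE-SCJ and stomach, and 51.9, 66.6 and 54.4 CPM at E19. At E15 the Smooth Muscle level was above the Stromal one in each region, by log2 ratios of 1.25, 1.26 and 0.45.

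The Stromal-2 cells held the most Hhip and Cdon of any label at E15, at E19 and in pups, with regions joined. Hhip there was 229.0 CPM in E15 stomach (15 cells), 684.0 CPM in E19 stomach (13 cells), 492.9 CPM in E19 GE-SCJ (46 cells), 1941 CPM in pup stomach (381 UMIs, 27 cells) and 1607 CPM in pup GE-SCJ (224 UMIs, 19 cells). The level was thus higher at each later stage, and over all regions the pup level was above E19 by a log2 ratio of 1.63 (E19 over pup −1.63 [−1.83 to −1.44]). Against Stromal cells of all regions, Stromal-2 cells held more Hhip by log2 ratios of 1.81 at E15, 2.66 [2.49 to 2.84] at E19 and 5.99 [5.51 to 6.51] in pups. Cdon was 239.4 CPM in E15 stomach, 346.1 and 393.5 CPM in E19 stomach and GE-SCJ, and 595.9 and 530.8 CPM in pups, 15.9-fold above Stromal cells in pups.

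The other response genes were not high in Stromal-2 cells. Ptch1 was below the Stromal level at E15 (log2 ratio −0.73) and E19 (−1.96) and could not be told from it in pups (−0.44 [−0.98 to 0.06]). Gli1 gave log2 ratios of −0.39, −1.41 and −0.97 at these stages, on only 34 Gli1 UMIs in all Stromal-2 cells. In this label Hhip was therefore above the Stromal level, while Ptch1 and Gli1 were not. In pups, 3 of the 5 listed genes with at least 50 UMIs (Smo, Hhip and Cdon) were at least 2-fold higher and 1 (Gli3) lower in Stromal-2 than in Stromal cells, against 8.31% and 16.2% of all genes.

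**Figure D5:**
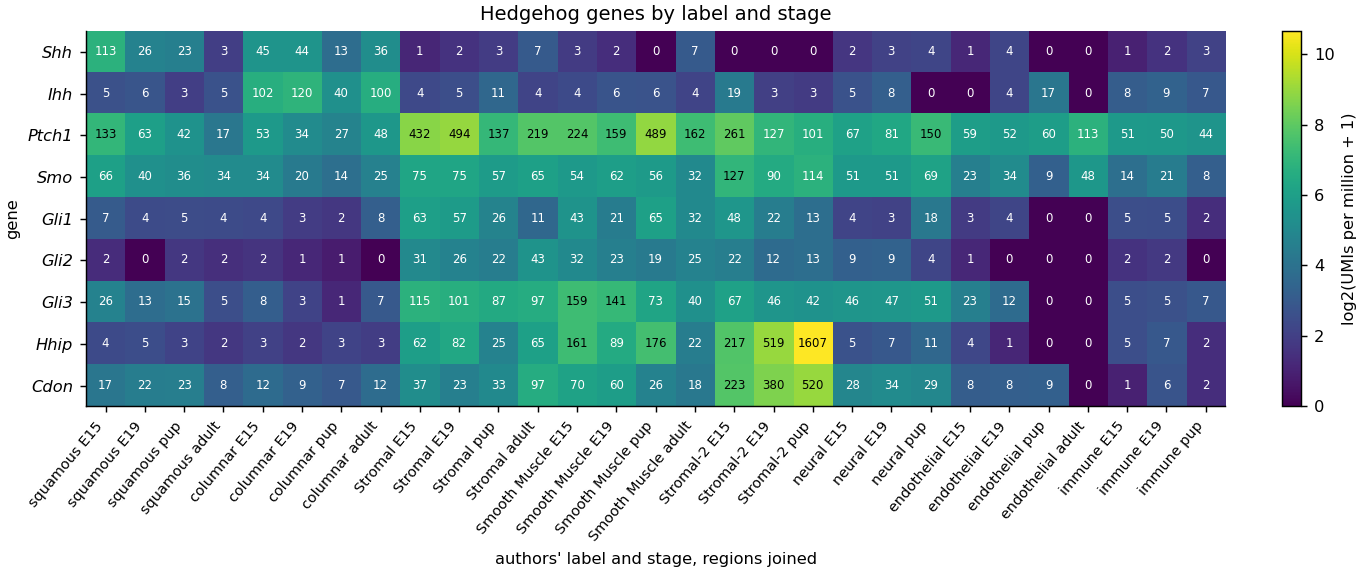
Levels of the 9 genes (rows) by cell label and stage (columns, regions joined, at least 20 cells), with the level in CPM printed in each cell and colour for log2 of that level plus 1. Shh and Ihh stood high in epithelial columns, Ptch1, Gli1, Gli2 and Gli3 in Stromal and Smooth Muscle columns, and Hhip and Cdon in Stromal-2.

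The other genes of the pathway also favoured the mesenchyme. In E15 stomach, these further reception genes were at least 2-fold higher in Stromal than in columnar cells: Gas1 (258.2 against 8.29 CPM), Gpc3, which binds ligand at the surface (828.7 against 70.4 CPM) and Boc (35.9 against 1.55 CPM). Of the 17 transduction genes measured, 7 were higher and 0 lower, among them Gpr161, a brake on the pathway in the cilium (21.2 against 1.29 CPM), and the cilium genes Evc and Arl13b. The release gene Scube1, whose protein helps carry ligand off the cell, was higher in Stromal cells (32.5 against 2.07 CPM). For comparison, 20.3% of all genes were at least 2-fold higher and 11.0% lower, and of the 9 Hedgehog genes 7 were higher and 2, Shh and Ihh, lower.

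Genes that gut mesenchyme switches on under Hedgehog signals split into groups in the same comparison. Of 11 measured, 8 were higher in E15 stomach Stromal than columnar cells, including Foxf1 (255.4 against 6.22 CPM), Foxf2 (85.6 against 1.04 CPM) and Bmp4 (280.2 against 3.88 CPM). The 3 that were lower, Ccnd1, Ccnd2 and Mycn, drive cell division. Between esophageal and stomach Stromal cells at E19, 3 of 11 were lower in the esophagus, Bmp4 (120.4 against 388.1 CPM), Foxf2 (60.0 against 120.1 CPM) and Mycn, and none was at least 2-fold higher. Of all genes, 5.22% were at least 2-fold lower there and 3.42% higher. Gas1 was higher in the esophagus (293.7 against 142.8 CPM) and Scube1 lower (19.1 against 43.3 CPM).

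Over time in stomach Stromal cells the transduction genes moved less than the listed Hedgehog genes. From E15 to pup, 1 of 17 transduction genes was at least 2-fold higher at E15 and none lower, against 15.3% and 7.72% of all genes. Genes of the other lists did move. Boc stood at 35.9 CPM at E15 and 109.7 CPM in pups, and Igfbp3, a binding protein for insulin-like growth factors, at 67.6 and 530.8 CPM. The median log2 ratio of E15 over pup was 0.11 for the transduction genes and 1.04 for the 7 listed genes measured, beside 0.18 over all 8948 genes. Myocd, a driver of smooth muscle genes, was lower at E15 (28.8 CPM) than at E19 (97.3 CPM).

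The genes whose levels ran most like each ligand over the 54 groups were epithelial. Shh was matched by Cldn7 (r = 0.872), a tight junction protein, then Rnf43, Sfta2, Epcam and Foxa1. Ihh was matched by Gipc2 (0.906), Pla2g10, Akr1c13, Hnf4g and Foxa3, the last 2 being transcription factors of columnar gut epithelium. The correlation between Shh and Ihh was lower, at 0.536. Hhip was matched best by Kcnb2 (0.873), a potassium channel, and its r with Cdon was 0.719. With 1 CPM in place of 10 CPM added before the logarithm, 3, 3, 3, 2 and 1 of the 5 nearest genes stayed the same for Shh, Ihh, Ptch1, Gli1 and Hhip.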

How the data were processed

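Cells of each region and stage were tagged, pooled and sequenced in 1 droplet library per kind (transcripts and tags). The authors aligned reads and assigned tags with Cell Ranger 6.1.1 on the mm10 reference, filtered cells, clustered and labelled them, and deposited UMI counts per gene and cell. These counts were used as deposited, with the authors' labels, and no doublet caller was run. The percent of mitochondrial UMIs that the authors deposited per cell served only in an alternative filter. Here UMIs were summed per label, region and stage and divided by all UMIs of the group, with squamous labels joined. Groups of a region and stage held 143 to 1403 cells, and those split by label held fewer, such as 15 adult GE-SCJ Stromal cells. Cells with at least 5000 UMIs were thinned to 5000 UMIs for shares (seed 1), and cells with fewer were left out of the shares. Members are compared with genes having at least 50 UMIs over both groups, and a 2-fold limit counts as called. Ratios were checked on simulated data with 200 changed genes. The members and lists were chosen with earlier results of these data known. Genes named are the members, the listed pathway and response genes, cell type markers and the 5 genes most like a member. A listed pathway gene is not reported here. Sequences are from RefSeq and gene positions from GENCODE. Python 3.11.15, numpy 2.4.6, pandas 2.3.3, scipy 1.17.1, scanpy 1.11.5, scikit-learn 1.9.0 and matplotlib 3.10.9 were used. Alternatives were another cell filter, cell class, library size, averaging, fold limit and thinning depth.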

Additional observations from a re-analysis of the deposited data

Results flagged for a closer look

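Each result here is a change between stages that ran one way in one group of cells and the opposite way in another, with neither counting interval reaching 0. Values are differences between 2 log2 ratios, first group minus second, and none of these differences was tested, since each group was 1 pooled sample.

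For Shh, the ratio of E15 over E19 was above 0 in GE-SCJ columnar and below 0 in stomach columnar cells, a difference of 1.24. For the ratio of E15 over E19 between regions in Stromal cells, Ptch1 differed by 1.03 between esophagus and stomach and by 0.64 between esophagus and GE-SCJ. Gli1 differed by 1.36 between esophagus and stomach. Hhip differed by 1.68 between esophagus and stomach and by 1.06 between esophagus and GE-SCJ.

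For the same ratio between Stromal and Smooth Muscle cells, Ptch1 differed by −0.82 in the GE-SCJ and by −1.24 in the stomach. Gli1 differed by −1.64 in the stomach. Hhip differed by −1.58 in the GE-SCJ and by −1.81 in the stomach.

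For the ratio of E19 over pup between Stromal and Smooth Muscle cells, Ptch1 differed by 3.16 in the GE-SCJ and 3.90 in the stomach. Gli1 differed by 2.63 in the GE-SCJ and 4.35 in the stomach. Hhip differed by 4.30 in the GE-SCJ and 3.20 in the stomach. The share of Smooth Muscle cells among the joined labels went from 24.4% to 59.2% in the GE-SCJ and from 18.6% to 59.2% in the stomach over the same stages, and its part in these differences was not tested.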

How the results depend on the processing

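Of 50 planned recomputed ratios, 46 moved by less than their counting interval. With each cell's own CPM averaged, the E15 log2 ratio of Ihh between esophageal squamous and stomach columnar cells was −2.83 in place of −4.73. With the cell class taken from marker lists, the E15 over pup ratios in stomach Stromal cells were 0.51 for Ptch1 (1.36 with the authors' labels), 0.52 for Gli1 (2.36) and −2.74 for Hhip, where the sign changed from 0.35, a value whose own interval reached 0. With Stromal and Smooth Muscle labels joined, an alternative chosen after seeing the data, they were −0.055 for Ptch1 and −1.11 for Hhip, both with a changed sign, and 0.38 for Gli1. In these the cells counted differ by construction. Asking for the whole counting interval past 2-fold left 2 of the 4 members higher at E15. Of 63 adult levels, 54 moved by less than their interval without the cells with prenatal neighbours, and of 14 shares of cells 11 moved with the thinning depth. Intervals cover counting error only, and adult Stromal, Smooth Muscle and columnar groups rest on few cells. No paired analysis was possible because each group is 1 pooled sample and the results come from no test.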
